A study of Mus musculus with 2 samples.

Results

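The kidney expresses many oxidoreductases that convert alcohols, aldehydes and ketones into each other, and this account concerns 6 families of them in mouse kidneys after acute kidney injury. The members were all genes of the deposited expression table whose symbol began with Aldh, Adh, Rdh, Akr, Dhrs or Fmo followed by a digit: aldehyde dehydrogenases (ALDH), alcohol dehydrogenases (ADH), retinol dehydrogenases (RDH), short-chain dehydrogenase/reductases (DHRS), aldo-keto reductases (AKR) and flavin-containing monooxygenases (FMO). This rule took 64 of the 19829 listed genes and used no measured value. RefSeq lists 77 mouse genes that match the rule, and the other 13 had no row and were not analysed here: *Adh4*, *Adh6-ps1*, *Adh6a*, *Adh6b*, *Akr1c6*, *Akr1cl*, *Aldh3a1*, *Dhrs2*, *Dhrs7c*, *Dhrs9*, *Fmo6*, *Fmo9* and *Rdh8*.

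Whole-kidney RNA was sequenced from 1 library of wild-type mice (WT+AKI) and 1 library of *Inmt* transgenic mice (TG+AKI), which overexpress indolethylamine N-methyltransferase in proximal tubules. Per the study's methods the mice were male C57BL/6 and the controls of the transgenic line were littermates. Both groups received voclosporin, a calcineurin inhibitor, at 30 mg/kg intraperitoneally each day for 2 weeks from 8 to 10 weeks of age, and both underwent 30 min of bilateral renal ischemia with reperfusion at 14 weeks. The kidneys were collected 48 h later per the methods and 24 h later per a figure legend. The submitters' labels name no treatment for either sample, and the title of the transgenic sample also reads as a conditional knockout. The promoter of the transgene and the number of animals behind each library are not given in the sources used here. Every difference below therefore sets 1 library beside another with no replicate check and no test of the genotype, and the 95% intervals cover counting error only.

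Aldehydes reach the proximal tubule from the breakdown of amino acids, amines and membrane lipids, and the enzymes of these families oxidize them to acids or reduce them to alcohols. A second route is that of vitamin A: retinol is oxidized reversibly to retinal by RDH and DHRS enzymes, and retinal is oxidized irreversibly to retinoic acid, a ligand of nuclear receptors, by the ALDH1A enzymes. The AKR enzymes also act on steroids and sugars, and the FMO enzymes add oxygen to nitrogen and sulphur atoms of drugs and diet-derived compounds.

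The libraries held 38542764 (WT+AKI) and 36427421 (TG+AKI) reads over the listed genes. The values used here are read counts that the authors scaled per library, so that 1 read counts as 0.0236 and 0.0302 in them, and a value of 1 stands for 42 and 33 reads. As a check of the labels, *Inmt* had a value of 10.4 and 443 reads in WT+AKI against 402.8 and 13339 reads in TG+AKI, a ratio of 38.5 (95% interval 35.1 to 42.5). Tubular markers were present in both kidneys, but their levels differed. All 6 markers of early proximal tubule were at least 2-fold higher in TG+AKI, their summed value going from 2314.4 to 10769.1, and all 5 markers of injured proximal tubule were at least 2-fold lower, from 1884.9 to 17.9. Of 5 macrophage markers 4 were at least 2-fold lower (summed value 124.8 and 65.8), as were 2 of 4 fibroblast and pericyte markers (379.2 and 162.3), while none of the 4 podocyte or 4 endothelial markers changed that far. Both neutrophil markers with a mean value of at least 1 were at least 2-fold lower. *Star*, the adrenal cortex marker with a row, stood at 2.15 and 1.45. *Cidec*, the adipocyte marker with a row, had 5.66 and 0.181 (240 and 6 reads). Of 3 liver markers, *Alb* was 10.3-fold higher, at 0.802 and 8.27 (34 and 274 reads), and the other 2 stayed within 2-fold.

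The dehydrogenase families moved in both directions, and more of them were past 2-fold than among genes at large. Of the 59 members with a mean value of at least 1, 15 (25.4%) were at least 2-fold higher in the TG+AKI kidney, against 6.70% of all 14543 genes with such a mean. A further 11 (18.6%) were at least 2-fold lower, against 10.1% of all genes, and 33 stayed within 2-fold. The split depended on level. Of the 21 members with a mean value of at least 100, 12 (57.1%) were higher, against 12.2% of the 1866 genes with such a mean. Of those 21 members 0 were lower, against 5.95% of those genes. The median log2 ratio of TG+AKI to WT+AKI was 0.39 over the 59 members and -0.014 over the 14543 genes. Of the 59, 44 members lay above a ratio of 1 and 15 below it, and of the 14543 genes 7108 lay above and 7435 below. With equal library totals, the members split into 10 higher and 12 lower, so 45.5% of the changed members were higher in place of 57.7%. That scaling moved all genes alike, and 4.34% of all genes were then higher and 14.9% lower, against 16.9% and 20.3% of the members. By family the median log2 ratio was 1.29 for FMO (5 genes), 0.61 for ADH (2 genes) and 0.59 for ALDH (19 genes). For AKR (14 genes) it was 0.35, for RDH (12 genes) 0.25 and for DHRS (7 genes) 0.23. With equal library totals the median turned negative for RDH (-0.025) and DHRS (-0.04). The counting interval excluded a ratio of 1 for 53 of the 59. The remaining 6 were *Aldh1a3*, *Akr1c18*, *Akr1c19*, *Dhrs13*, *Rdh1* and *Rdh19*.

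**Figure D1:**
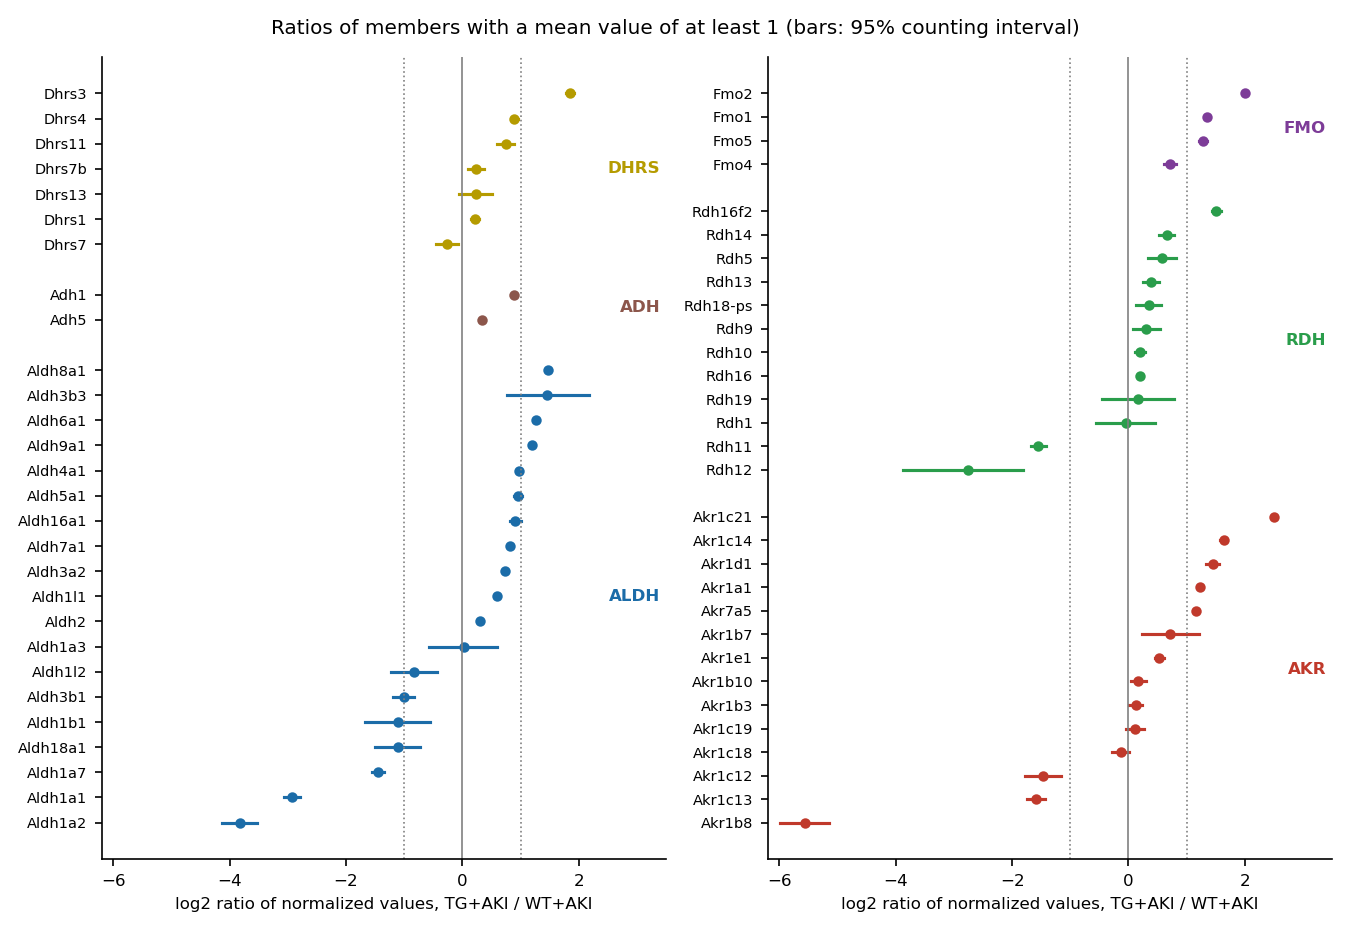
Log2 ratio of the normalized value in TG+AKI to that in WT+AKI for members with a mean value of at least 1, by family, without 1 member that is not reported here. Points are ratios of 1 library to 1 library, bars are 95% counting intervals, dotted lines mark 2-fold and the solid line marks the median of all genes. The FMO points all lie to the right of the line, and *Akr1b8* (-5.55), *Aldh1a2* (-3.82) and *Aldh1a1* (-2.93) lie farthest to the left.

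Summed over all 64 members, the value was 6285.0 in WT+AKI against 12650.1 in TG+AKI, 2.01-fold higher. With this scaling the summed value of all listed genes was also 1.21-fold higher in TG+AKI. The members took 0.691% of the WT+AKI reads and 1.15% of the TG+AKI reads.

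**Figure D2:**
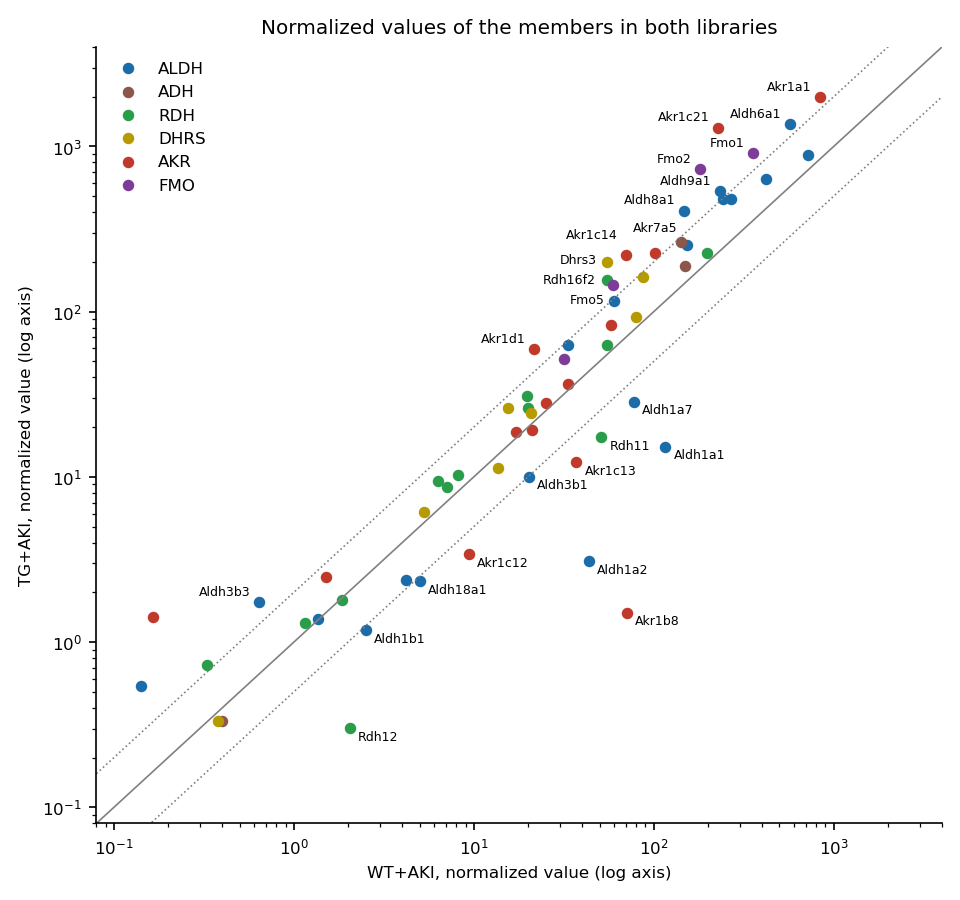
Normalized value of the members, without 1 that is not reported here, in WT+AKI (horizontal) and TG+AKI (vertical), both on log axes, 1 library each, coloured by family. The solid line marks equal values and the dotted lines 2-fold; named points are members past 2-fold with a mean value of at least 1. At the upper right the points lie on or above the line of equal values, and those farthest below it, such as *Akr1b8* and *Aldh1a2*, lie in the middle of the range.

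The enzymes that make retinoic acid were sharply lower in the transgenic kidney. *Aldh1a1* (chr19:20492715-20643465, GRCm38), which encodes the cytosolic retinal dehydrogenase, stood at 115.7 in WT+AKI against 15.2 in TG+AKI, 7.63-fold lower (95% interval 6.96 to 8.38). *Aldh1a2*, encoding the retinal dehydrogenase that supplies most retinoic acid in the embryo, had 43.6 and 3.08, 14.2-fold lower (11.6 to 17.5). *Aldh1a3*, the remaining retinal dehydrogenase, was near the lower limit in both kidneys, at 1.37 and 1.39. Together these genes went from 160.7 to 19.6, 8.19-fold lower. In whole-kidney RNA, fewer cells of a type and less RNA per cell cannot be told apart. The markers of injured proximal tubule, macrophages and fibroblasts moved the same way in these libraries as these genes and the other lower members, and their part in the result was not tested.

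The sequences before the starts of these 2 genes are shown because these genes changed the most of the retinoid route. Those of *Dhrs3*, *Akr1b8* and *Akr1c21* follow beside their values. They are RefSeq windows of GRCm38.p6 that end at the RefSeq start, or earlier where an annotated exon begins before it. For *Aldh1a1* the table holds 2 starts, at chr19:20492433-20492582 and chr19:20601818-20601960, both on the plus strand. Capitals mark TGANTCA, the letters bound by AP-1 factors (searched on both strands), whose first base lies 57 bases before the upstream RefSeq start. That start lies before the first base of the gene in GENCODE, chr19:20492715. *Aldh1a2* (chr9:71215639-71215788, plus strand) holds TGACNNNGC, the core of the antioxidant response element that binds NRF2, in capitals, 112 bases before the start.
Aldh1a1, upstream start: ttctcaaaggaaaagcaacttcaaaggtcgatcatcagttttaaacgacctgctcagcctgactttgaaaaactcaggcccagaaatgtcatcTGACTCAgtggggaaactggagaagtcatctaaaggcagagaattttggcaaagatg
Aldh1a1, downstream start: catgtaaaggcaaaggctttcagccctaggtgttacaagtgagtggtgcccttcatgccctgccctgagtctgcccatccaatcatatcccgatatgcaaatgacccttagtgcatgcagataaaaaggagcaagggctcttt
Aldh1a2: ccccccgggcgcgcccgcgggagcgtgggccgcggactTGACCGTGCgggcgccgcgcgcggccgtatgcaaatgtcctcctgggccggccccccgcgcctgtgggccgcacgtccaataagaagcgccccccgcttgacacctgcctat

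Such matches were not more common before the members' starts than before those of other genes. Of the 59 windows of 300 bases that RefSeq holds for 51 of the members, 4 (6.78%) had the NRF2 core, against 12.4% of all 32851 windows, and 4 (6.78%) had the AP-1 letters, against 7.81%. The cores of the liver and kidney factors HNF1 and HNF4 (CAAAGTCCA) were in 0 of the member windows and in 0.399% and 0.475% of all windows. The NRF2 and AP-1 patterns can overlap, but no member window held both. TATAAA on the gene's strand was in 3 (5.08%) against 8.32%. A match describes letters and is no evidence of binding.

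Upstream of retinoic acid, the genes that convert retinol and retinal did not move as a group. Of the 13 with a mean value of at least 1, 2 were at least 2-fold higher and 2 lower. This is 15.4% each, against 6.70% and 10.1% of all genes. The median log2 ratio was 0.30. *Dhrs3*, whose product reduces retinal back to retinol, had 55.3 in WT+AKI against 200.0 in TG+AKI, 3.61-fold higher (3.45 to 3.79). *Rdh16f2*, a relative of the retinol-oxidizing *Rdh16*, had 54.8 and 156.1, 2.85-fold higher (2.71 to 3).
Dhrs3 (chr4:144892677-144892826, plus strand, first of 2 starts): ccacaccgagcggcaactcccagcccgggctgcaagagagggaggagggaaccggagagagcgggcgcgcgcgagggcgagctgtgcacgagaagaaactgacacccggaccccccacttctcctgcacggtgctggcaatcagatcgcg

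A neighbouring pair was lower. *Rdh11* and *Rdh12*, which encode related retinal reductases, lie in a stretch of 48.3 kb on chromosome 12. *Rdh11* had 50.9 in WT+AKI against 17.4 in TG+AKI, 2.92-fold lower. *Rdh12*, best known from the photoreceptors of the eye, had only 87 and 10 reads (values 2.05 and 0.302), 6.8-fold lower with a wide interval of 3.52 to 14.7. *Rdh10*, which encodes the main retinol-oxidizing enzyme of the embryo, stayed close at 54.8 and 62.9, as did *Rdh16* at 198.4 and 227.4. Both of these ratios were 1.15, and with equal library totals both turned negative on the log2 scale (-0.078). *Dhrs4*, encoding a peroxisomal carbonyl and retinal reductase, had 87.7 and 162.9, a ratio of 1.86. The other 6 (*Rdh1*, *Rdh5*, *Rdh9*, *Rdh13*, *Rdh14* and *Rdh19*) had ratios between 0.972 and 1.58. *Rdh9* shared 87.5% of its 100-base words with other genes, mainly *Rdh16f1*, and *Rdh18-ps* 44.7%, so their counts are uncertain.

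Genes that supply, store, degrade or sense retinoids were taken from a list of 21 outside the rule, of which 15 had a mean value of at least 1. There were 4 at least 2-fold higher and 1 lower, where all genes had 6.70% and 10.1%. The median log2 ratio of 0.06 turned negative with equal library totals (-0.21). The lower one was *Bco1*, which encodes the enzyme that cleaves beta-carotene to retinal, at 22.5 in WT+AKI against 4.14 in TG+AKI (log2 ratio -2.44). *Bco2*, encoding the enzyme that cleaves carotenoids off-centre, went the other way, at 3.63 and 17.4 (2.26). *Lrat*, which encodes the enzyme that esterifies retinol for storage, had 1.91 and 8.55 (2.16). The carrier gene *Ttr* had 22.8 and 75.5 (1.72), and *Stra6*, the retinol uptake receptor gene, 1.51 and 4.11 (1.44). The genes of the retinoic acid receptors *Rara*, *Rarb* and *Rarg* had ratios of 0.699 to 0.806. The retinoid X receptor genes *Rxra* and *Rxrb* lay above 1, at 1.48 and 1.35. *Cyp26b1*, of the degrading enzyme, had 0.558, and all of these were within 2-fold.

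**Figure D3:**
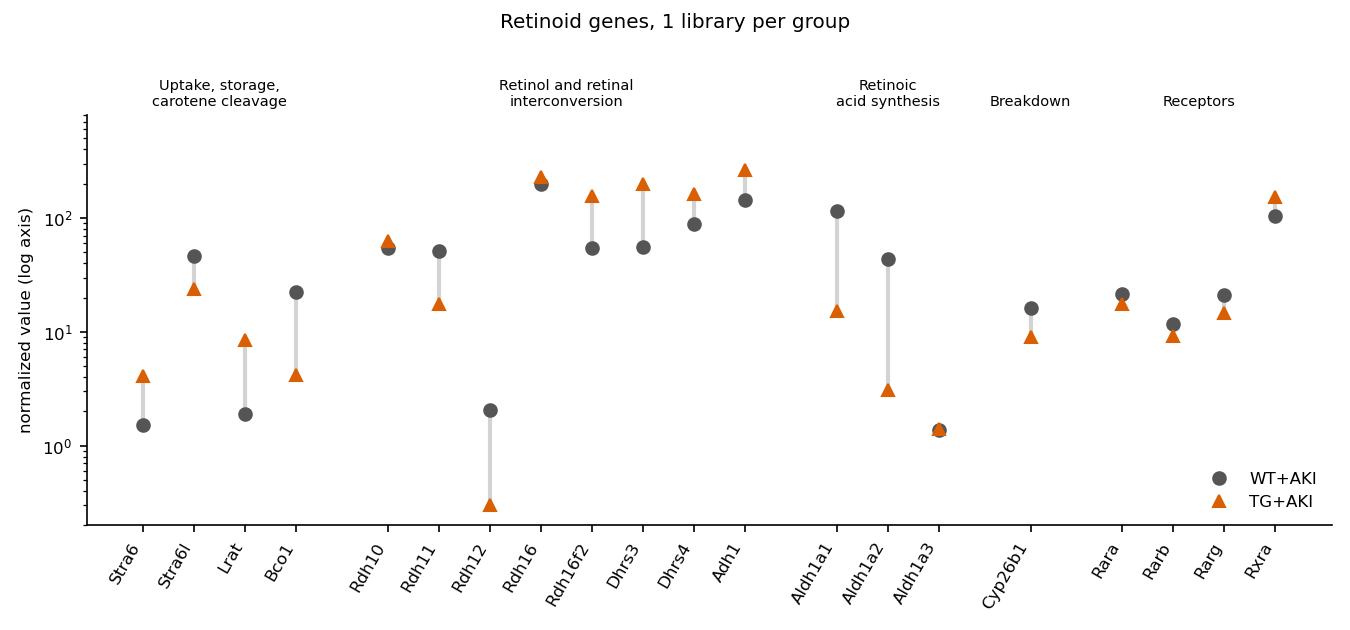
Normalized value (log axis) of selected retinoid genes in WT+AKI (circles) and TG+AKI (triangles), 1 library each. The genes are ordered along the route from uptake to receptors, and grey lines join the values of a gene. *Bco2* and *Ttr*, both higher in TG+AKI, are among those not drawn. *Aldh1a1*, *Aldh1a2*, *Rdh12* and *Bco1* show long drops from circle to triangle, *Dhrs3*, *Rdh16f2* and *Lrat* rise, and the receptor genes stay close.

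Aldehyde dehydrogenases of amino acid, amine and folate breakdown were mostly higher, 7 of 9 with a ratio above 1, against 7108 of all 14543 genes. Of these 9 genes, 3 were at least 2-fold higher and 1 lower (33.3% and 11.1%, against 6.70% and 10.1% of all genes). The median log2 ratio of the group was 0.96. *Aldh6a1*, encoding the mitochondrial enzyme of valine breakdown, had 569.0 in WT+AKI against 1363.5 in TG+AKI, a ratio of 2.4 (2.36 to 2.43). *Aldh8a1*, which acts in tryptophan breakdown through the kynurenine route, had 147.2 and 409.5, a ratio of 2.78 (2.7 to 2.87). *Aldh9a1*, which acts in carnitine synthesis, had 232.9 and 535.7, a ratio of 2.3 (2.24 to 2.36). Exons on the other strand (*Bbof1*) overlap 18.6% of *Aldh6a1*. With equal library totals *Aldh6a1* and *Aldh9a1* no longer passed 2-fold.

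Other genes of this group lay just under the threshold. *Aldh4a1*, of proline breakdown, had a ratio of 1.97, *Aldh5a1*, of the breakdown of the transmitter GABA, 1.94, and *Aldh7a1*, of lysine breakdown, 1.77. *Aldh4a1* shared 32.2% of its words with an overlapping gene model. *Aldh1l1*, encoding the cytosolic 10-formyltetrahydrofolate dehydrogenase, had 419.6 and 633.8, a ratio of 1.51, while its mitochondrial relative *Aldh1l2* was at 4.22 and 2.39, a ratio of 0.565. The lower member was *Aldh18a1*, which makes proline precursors and so runs opposite to the breakdown enzymes, at 5.02 and 2.33, 2.16-fold lower, and no longer past 2-fold on the log2(value + 1) scale.

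Aldehyde dehydrogenases that clear small and lipid-derived aldehydes moved less in this direction. Of 6 with a mean value of at least 1, 1 was at least 2-fold higher and 3 lower, with a median log2 ratio of -0.35. *Aldh2*, the mitochondrial enzyme that oxidizes acetaldehyde and the lipid product 4-hydroxynonenal, had 718.7 in WT+AKI against 884.9 in TG+AKI, a ratio of 1.23 (1.21 to 1.25). *Aldh1a7*, a close relative of *Aldh1a1* that lies with it in 234.8 kb of chromosome 19, had 77.6 and 28.5, 2.72-fold lower (2.53 to 2.93). *Aldh1a7* and *Aldh1a1* shared 0.0508% and 0.0443% of their 100-base words. *Aldh3a2*, the fatty aldehyde dehydrogenase gene, had a ratio of 1.66.

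The rest of this group had low values. *Aldh3b1* had 20.2 and 10, 2.01-fold lower, the value nearest to the threshold from inside. *Aldh1b1*, a mitochondrial relative of *Aldh2*, had 2.52 and 1.18, 2.14-fold lower, and *Aldh3b3* had 0.637 and 1.75 (27 and 58 reads), 2.75-fold higher with an interval of 1.71 to 4.52. On the log2(value + 1) scale *Aldh3b1*, *Aldh1b1* and *Aldh3b3* no longer passed 2-fold, and *Aldh3b1* did not with DESeq2 size factors either. Over the 8 mitochondrial members of all families the median log2 ratio was 0.34, and over the 51 others it was 0.53. No member of the alcohol dehydrogenase family passed 2-fold. *Adh1*, encoding the class of enzyme that oxidizes ethanol and retinol, had 142.7 and 262.6, a ratio of 1.84, and *Adh5*, which clears formaldehyde and nitrosoglutathione, 149.7 and 189.5, a ratio of 1.27.

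The aldo-keto reductases held both the largest fall and the largest rise among the tested members. *Akr1b8*, which encodes an aldose reductase-like enzyme that reduces lipid aldehydes and retinal, stood at 70.9 with 3008 reads in WT+AKI and fell to 1.51 with 50 reads in TG+AKI, 47-fold lower with an interval of 35.5 to 63.5. Its neighbours did not follow. On chromosome 6 the 4 genes of this type span 120.7 kb, and *Akr1b3*, the aldose reductase gene proper, had 33.4 and 36.5, *Akr1b10* 25.1 and 28.1, and *Akr1b7* 1.51 and 2.48. With equal library totals the log2 ratios of *Akr1b3* (-0.14) and *Akr1b10* (-0.11) turned negative, and exons on the other strand overlap 27.2% of *Akr1b7*. *Akr1b8* shared none of its 100-base words with another gene.
Akr1b8 (chr6:34353996-34354118, plus strand): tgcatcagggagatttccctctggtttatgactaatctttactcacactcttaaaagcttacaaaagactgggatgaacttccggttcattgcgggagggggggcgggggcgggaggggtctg

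*Akr1c21*, encoding an enzyme that reduces steroids at the 17-alpha position, had 227.9 in WT+AKI against 1299.3 in TG+AKI, 5.7-fold higher (5.58 to 5.83). It lies at chr13:4574075-4586541 in a run of 8 members spanning 560.2 kb, and the genes of this run differed in direction. *Akr1c14*, of 3-alpha-hydroxysteroid metabolism, had 70.5 and 218.9, 3.11-fold higher (2.98 to 3.24). *Akr1c13* had 37.2 and 12.3, 3.02-fold lower (2.7 to 3.37), and *Akr1c12* 9.41 and 3.41, 2.76-fold lower (2.23 to 3.43). These last 2 share 11.5% of their words, so their separate counts are uncertain. *Akr1c18*, which inactivates progesterone, and *Akr1c19* had intervals that include a ratio of 1.
Akr1c21 (chr13:4573925-4574074, plus strand): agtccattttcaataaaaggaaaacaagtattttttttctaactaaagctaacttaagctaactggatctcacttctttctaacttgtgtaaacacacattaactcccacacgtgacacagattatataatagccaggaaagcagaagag

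Beyond this run, *Akr1d1*, which encodes the 5-beta-reductase of bile acid and steroid metabolism, had 21.7 and 59.1, 2.73-fold higher (2.52 to 2.96). *Akr1a1*, whose product reduces glucuronate on the way to vitamin C, had the highest level per transcript length of all members, a mean of 633.9 per kb. Its value was 843.0 in WT+AKI against 1980.4 in TG+AKI, a ratio of 2.35 (2.32 to 2.38). *Akr7a5*, encoding an aldehyde reductase that acts on succinic semialdehyde and aflatoxin aldehyde, had 101.9 and 227.6, a ratio of 2.23, and *Akr1e1* a ratio of 1.44. With equal library totals *Akr1a1* and *Akr7a5* no longer passed 2-fold.

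The flavin monooxygenases were higher in the TG+AKI kidney. Every FMO gene reported here had a ratio above 1, and the median log2 ratio of the family was 1.29. *Fmo1*, the main kidney form in the mouse, had 357.1 in WT+AKI against 910.9 in TG+AKI, a ratio of 2.55 (2.5 to 2.6). *Fmo2*, best known as the lung form, had 181.7 and 732.0, a ratio of 4.03 (3.93 to 4.13). *Fmo5* had 59.5 and 144.9, a ratio of 2.44 (2.32 to 2.56). *Fmo4* had 31.6 and 51.9, a ratio of 1.64. *Fmo1*, *Fmo2* and *Fmo4* lie near each other on chromosome 1. The early proximal tubule markers moved the same way. Above a ratio of 1 were 4 of 5 straight-segment markers, 2 of them at least 2-fold (summed value 1096.3 and 2070.6). In thick ascending limb 3 of 4 markers were above 1, 2 of them at least 2-fold (1902.9 and 3151.0). All 3 markers of distal convoluted tubule were above 1, 2 of them at least 2-fold (105.7 and 524.1). The part of these in the higher values of this family and of the other higher members was not tested.

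**Figure D4:**
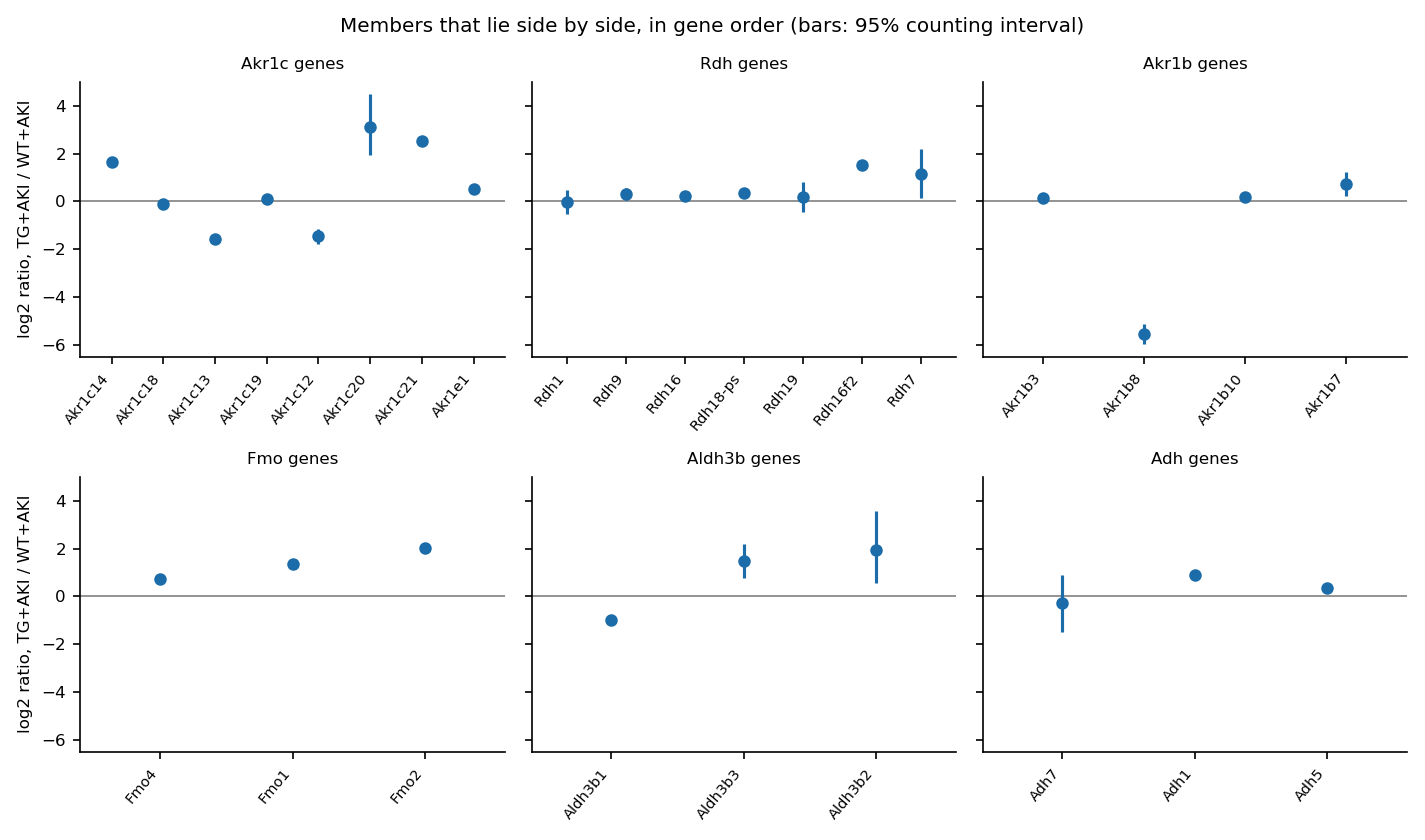
Log2 ratio of TG+AKI to WT+AKI for members that lie side by side on a chromosome, in gene order, with 95% counting intervals, 1 library per group. Among the Fmo genes every point drawn lies above 0, in the Akr1c run *Akr1c21* (2.51) and *Akr1c14* (1.64) lie above and *Akr1c13* (-1.59) and *Akr1c12* (-1.46) below, and in the Akr1b run *Akr1b8* (-5.55) alone lies far below. Members with a mean value under 1 (*Akr1c20*, *Rdh7*, *Aldh3b2* and *Adh7*) are drawn but entered no count.

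Levels of different members can be compared only per transcript length. By the mean value per kb of the longest transcript, the highest after *Akr1a1* were *Akr1c21* (586.1), *Aldh6a1* (278.4), *Aldh2* (207.4), *Fmo1* (204.1), *Adh1* (135.8), *Aldh9a1* (135.6), *Akr7a5* (127.9), *Aldh1l1* (126.2) and *Fmo2* (112.4). Of these levels per kb, *Aldh2* was second in WT+AKI at 185.9, close to *Akr1c21* at 174.9, and in TG+AKI *Akr1c21* was first at 997.2, ahead of *Akr1a1* at 889.3.

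The members outside these routes stayed within 2-fold. These were *Dhrs1*, *Dhrs7*, *Dhrs7b*, *Dhrs11*, *Dhrs13*, *Rdh18-ps* and *Aldh16a1*, with ratios from 0.829 for *Dhrs7* to 1.88 for *Aldh16a1*. The 5 members with a mean value under 1 had 6 to 47 reads per library and are given for completeness. *Akr1c20* had 7 WT+AKI reads and 47 TG+AKI reads, *Aldh3b2* 6 and 18, *Rdh7* 14 and 24, *Adh7* 17 and 11, and the antisense gene *Dhrs13os* 16 and 11.

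NRF2 is a transcription factor that induces many detoxifying enzymes under oxidative stress. A list of 24 genes outside the rule held NRF2 targets, the NRF2 gene *Nfe2l2* and *Keap1*. These genes were mostly lower in the TG+AKI kidney, 21 of 24 with a ratio below 1, against 7435 of all 14543 genes. Of the 24, 0 were at least 2-fold higher and 12 lower, against 6.70% and 10.1% of all genes. The median log2 ratio of the list was -0.95. The 12 include *Nfe2l2* itself (211.6 in WT+AKI against 98.1 in TG+AKI), while *Keap1* had a ratio of 1.07. *Slc7a11*, the cystine transporter gene, had 4.06 in WT+AKI against 0.181 in TG+AKI (log2 ratio -4.48, 172 and 6 reads). *Ephx1*, of epoxide hydrolysis, had 393.5 and 55.5 (-2.83), and *Srxn1*, of peroxiredoxin repair, 409.2 and 77.5 (-2.40). *Hmox1*, of heme breakdown, had 169.7 and 43.3 (-1.97), and *Gsta1*, a glutathione transferase gene, 77.7 and 20.9 (-1.90). Lower members such as *Akr1b8*, *Aldh1a1* and *Aldh1a7* share this direction because they were called lower. No link between them and this list was tested.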

How the data were processed

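Total RNA of whole kidneys was sequenced after TruSeq stranded mRNA library preparation, per the labels, with 1 library per group. The RNA came from the left kidney per the study's methods. The same methods state alignment with STAR 2.7.3a, counting per gene with HTSeq, normalization with DESeq2, FPKM estimates with Cufflinks 2.2.1 (not used here) and quality control with FastQC. The submitters' processing notes add edgeR and the build mm10. The annotation and the strand setting of the counting are not given in the sources used here, and reads of overlapping genes cannot be told apart.

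The deposited table holds 1 normalized signal value per gene and library, which the authors made by dividing read counts by a library scaling factor. All values (100%) were whole multiples of the smallest value of their column, within 0.01 of a read, and division gave back whole reads. The value sums were 909104.5 (WT+AKI) and 1099983.6 (TG+AKI). Rescaling to equal library totals set these sums equal, a shift of -0.27 on the log2 scale, so that only total reads scaled the libraries. The deposited values need not be DESeq2-normalized, since the submitters' notes also name edgeR. DESeq2 size factors computed here shifted all genes by 0.02 on the log2 scale from the deposited values. Which tool gave the deposited scaling was not tested. A ratio of values was taken with a 95% Clopper-Pearson interval from the reads (scipy 1.17.1). Genes with a mean value of at least 1 over both libraries were compared, and a ratio of 2 or more in either direction counted as changed. No p-value was computed, since each group has 1 library. Low counts were read against a floor of 3 reads, which every member exceeded in both libraries.

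Positions and transcript lengths were taken from GENCODE M21 (GRCm38), and sharing was the percentage of 100-base words of a gene's longest transcript found in other genes. Promoter windows, 250 bases before to 50 after a start, came from RefSeq (GRCm38.p6). The procedures were tested on simulated data. Members, gene lists, functional groups, thresholds and tests were chosen with earlier results of these data known. Values were given for every changed member, for the 10 members with the highest level per kb, for at least 1 member of each family, and for the 5 largest changes of each list outside the rule. As an exception, the values of 1 member are not reported here, and it stays in the counts and medians. Alternatives were other library scalings, a log2(value + 1) scale, other filters and folds, and removal of genes that share over 20% of their words.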

Additional observations from a re-analysis of the deposited data

How the results depend on the processing

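No paired analysis was possible because each group has 1 library, and for the same reason no replicate could be left out. Rescaling to equal library totals shifted all genes by -0.27 on the log2 scale and gave 10 higher and 12 lower members. *Akr1a1*, *Akr7a5*, *Aldh6a1* and *Aldh9a1* were among those then no longer called and *Aldh1l2* became lower. Setting the median ratio to 1 over genes valued 100 or more in both libraries shifted genes by -0.14 and gave 14 and 11. The 2-fold counts otherwise ranged from 13 to 18 higher and 7 to 11 lower, with 7 lower under both filters of 10 because fewer genes were tested. In those settings 22.0% to 29.5% of members were higher, against 4.85% to 9.18% of all genes. Lower were 13.6% to 19.6% of members, against 6.72% to 12.6% of all genes. A 1.5-fold rule gave 27 higher members (45.8%, against 15.0% of all genes). It gave 12 lower members (20.3%), close to the 18.6% of all genes. DESeq2 size factors and the log2(value + 1) scale turned no member's direction, but with the size factors *Aldh3b1* was no longer called, and on the log2(value + 1) scale *Aldh18a1*, *Aldh1b1*, *Aldh3b1* and *Aldh3b3* were among those no longer called.

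The median of the members was 0.11 with equal totals, 0.24 with a median ratio of 1, 0.66 with a value of at least 10 in 1 library and 0.69 with a mean of at least 10. With equal totals the family medians were 0.32 (ALDH), 0.34 (ADH), -0.025 (RDH), -0.04 (DHRS), 0.072 (AKR) and 1.01 (FMO), so RDH and DHRS changed sign. With a median ratio of 1 they were 0.45, 0.47, 0.11 and 0.09 for ALDH, ADH, RDH and DHRS and 1.14 for FMO. Without a filter they were 0.66 (ALDH), 0.34 (ADH) and 0.53 (AKR). ALDH was at 0.78 under either filter of 10 and at 0.45 without genes of shared words. Of the lists, with equal totals the retinoid list turned to -0.21, the NRF2 list was at -1.23, the related oxidoreductases at -0.33 and the polyol list at 0.19. With a median ratio of 1 these were -0.084, -1.10, -0.20 and 0.32. Under either filter of 10 the retinoid list was at -0.31, the oxidoreductases turned to 0.43 and the polyol list was at 0.30, over fewer genes. Removal of shared words was not run for the lists.

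Of these settings only the rescalings of all genes turned single members. With equal totals the members above a ratio of 1 went from 44 to 34, the sign changing for *Akr1b10* (-0.11), *Akr1b3* (-0.14), *Dhrs1* (-0.058), *Dhrs7b* (-0.04), *Rdh10* (-0.078) and *Rdh16* (-0.078), and for 4 members whose interval includes 1: *Akr1c19* (-0.16), *Aldh1a3* (-0.25), *Dhrs13* (-0.054) and *Rdh19* (-0.11). A median ratio of 1 turned *Akr1b3* (-0.013), *Akr1c19* (-0.031) and *Aldh1a3* (-0.12). Depth limits the members with few reads, such as *Rdh12* and *Aldh3b3*.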

Other observations

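Oxidoreductases outside the 6 families moved in both directions. Of 21 related genes with a mean value of at least 1, 3 were at least 2-fold higher and 6 lower. Among all genes these shares were 6.70% and 10.1%, so these related genes, like the members, were past 2-fold more often in both directions. Their median log2 ratio was -0.051. *Cbr3*, a carbonyl reductase gene, had 24.7 in WT+AKI and 2.14 in TG+AKI (log2 ratio -3.53), and its relative *Cbr1* 150.5 and 54.1 (-1.48). *Xdh*, of purine breakdown to urate, had 145.8 and 44.6 (-1.71), and *Maob*, which oxidizes amines to aldehydes, 6.16 and 2.05 (-1.58). In the other direction *Sord*, which oxidizes sorbitol to fructose, had 524.2 and 1997.5 (1.93), and *Adhfe1* and *Hsd17b14* were the other 2 at least 2-fold higher, with ratios of 2.72 and 2.68. *Cbr2* and *Cbr4*, further carbonyl reductase genes, had ratios of 0.922 and 1.35.

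*Sord* also belongs to a list of 8 genes of polyol metabolism and osmotic response, with a median log2 ratio of 0.46. Of the 8, 2 were at least 2-fold higher and 0 lower, where all genes had 6.70% and 10.1%. *Slc6a12*, the betaine transporter gene, was at 0.708 and 4.56 (2.69, from 30 and 151 reads). *Khk*, of fructose phosphorylation, had 246.6 and 397.7 (0.69), *Slc6a6*, the taurine transporter gene, 417.4 and 643.7 (0.62), and *Slc5a3*, the myo-inositol transporter gene, 153.3 and 188.6 (0.30). *Akr1b3*, whose product makes the sorbitol that SORD consumes, stood at 33.4 and 36.5.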
